A study of Mus musculus with 12 samples.

Results

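In the thymus of C57BL/6 mice, 2233 of 63309 regions of accessible chromatin (3.53%) were accessible in iNKT1 cells and at least 3-fold less so in iNKT2 and iNKT17 cells, and are called open only in iNKT1 here. Chromatin accessibility was measured by ATAC-seq, in which a transposase inserts sequencing adapters into open DNA, and each region is a window of 500 bp. A region was taken when the lower of the 2 C57BL/6 iNKT1 libraries exceeded the highest of the 4 C57BL/6 iNKT2 and iNKT17 libraries by at least 1.585 on the log2 scale, which is 3-fold, and the iNKT1 mean was at least 2.32, about 5 insertions per kb. By the same rule, 1443 regions were open only in iNKT2 and 3332 only in iNKT17 cells. Levels are log2 normalized insertions per kb throughout. The regions were chosen by the C57BL/6 values, so their levels in C57BL/6 cells are a description without a test.

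The libraries came from untreated mice of 8 to 9 weeks on the C57BL/6 background, either wild type or *Hivep3*-/-, the latter lacking the zinc finger protein HIVEP3. There were 2 libraries per subset and genotype and 12 in all, with thymi pooled before sorting and sample titles that number single mice, so p-values measure the spread between these libraries. iNKT1 cells were sorted as CD122+ ICOS-, iNKT2 cells as CD122- ICOS+ Izumo1r+ CD138- and iNKT17 cells as CD122- ICOS+ Izumo1r- CD138+. The subsets were transposed together and separated again by ICOS and CD138, because the fluorescence of the CD122 and Izumo1r stains was quenched. The genes of the sort markers, *Il2rb* for CD122, *Icos*, *Izumo1r* and *Sdc1* for CD138, are in the lists used here. *Il2rb* is in an iNKT1 list, *Icos* and *Izumo1r* in the iNKT2 list and *Sdc1* in the iNKT17 list, so the lists are not independent of the sorting.

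iNKT cells are T cells with an invariant receptor for lipids shown by CD1d, and they take on effector functions while still in the thymus. The iNKT1 subset resembles T helper 1 and natural killer (NK) cells: it depends on the T-box factor T-bet, encoded by *Tbx21*, makes interferon-γ and carries NK receptors. iNKT2 cells make interleukin-4, and iNKT17 cells depend on RORγt and make interleukin-17.

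Stretches of 9 of the regions are shown first because they lie at genes that typify iNKT1 cells and hold a short motif of a factor family known in these cells. Capitals mark matches, on either strand, to AGGTGTGA, which T-box factors bind, or TGTGGTT, which Runx factors bind. The first 6 stretches hold the T-box letters, the *Ifng* stretch 2 times, and the last 3 hold the Runx letters. Each stretch has 120 bases, 5′ to 3′.
*Nkg7* promoter (chr7:43437068-43437187, GRCm38.p6, + strand): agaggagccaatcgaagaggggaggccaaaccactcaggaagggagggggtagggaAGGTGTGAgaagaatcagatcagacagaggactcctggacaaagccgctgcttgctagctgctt
*Ifng* upstream (chr10:118435619-118435738, GRCm38.p6, + strand): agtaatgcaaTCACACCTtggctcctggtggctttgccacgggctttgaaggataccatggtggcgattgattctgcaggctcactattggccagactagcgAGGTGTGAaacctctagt
*S1pr5* upstream (chr9:21250235-21250354, GRCm38.p6, + strand): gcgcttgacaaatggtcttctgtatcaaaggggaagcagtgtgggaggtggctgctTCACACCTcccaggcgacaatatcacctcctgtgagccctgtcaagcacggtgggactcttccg
*Itga1* intron (chr13:115098424-115098543, GRCm38.p6, + strand): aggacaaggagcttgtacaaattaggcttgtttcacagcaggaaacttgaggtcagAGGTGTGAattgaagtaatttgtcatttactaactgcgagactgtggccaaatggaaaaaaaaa
*Klrb1c* region (chr6:128790576-128790695, GRCm38.p6, + strand): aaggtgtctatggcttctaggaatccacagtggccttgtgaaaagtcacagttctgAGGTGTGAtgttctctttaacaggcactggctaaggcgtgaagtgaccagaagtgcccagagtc
*Klrb1a* region (chr6:128625321-128625440, GRCm38.p6, + strand): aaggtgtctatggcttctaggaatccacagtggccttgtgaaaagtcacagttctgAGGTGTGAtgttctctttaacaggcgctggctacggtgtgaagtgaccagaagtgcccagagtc
*Xcl1* promoter (chr1:164935687-164935806, GRCm38.p6, + strand): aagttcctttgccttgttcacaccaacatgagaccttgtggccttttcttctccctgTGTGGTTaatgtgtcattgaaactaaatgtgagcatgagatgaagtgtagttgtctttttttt
*Klrd1* upstream (chr6:129586918-129587037, GRCm38.p6, + strand): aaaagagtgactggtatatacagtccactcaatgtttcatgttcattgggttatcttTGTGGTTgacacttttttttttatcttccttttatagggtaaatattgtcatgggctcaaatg
*Itgax* region (chr7:128119927-128120046, GRCm38.p6, + strand): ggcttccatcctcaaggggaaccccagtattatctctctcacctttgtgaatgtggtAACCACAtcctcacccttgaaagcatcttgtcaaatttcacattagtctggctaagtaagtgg

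The *Klrb1c* and *Klrb1a* stretches are paralogous copies with 97.5% of 120 bases identical. They differ at 3 bases, A82G, A90C and C93T, counted from 1 at the 5′ end with the *Klrb1c* base first, and the marked T-box match is unchanged between them. With C93T the *Klrb1a* stretch also holds GGTGTGA, a shorter core of the T-box motif, which the *Klrb1c* stretch lacks at that place. How reads that fit several near-identical copies were counted is not given in the sources used here, so levels at the *Klrb1*, *Klrc* and *Klra* families are uncertain between copies.

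The depth of the libraries cannot be read from the normalized values. A measure that grows with depth, the number of distinct values up to the median, ran from 73 to 491, and was lowest in the *Hivep3*-/- iNKT17 libraries (73 and 85) and highest in a *Hivep3*-/- iNKT1 library. Promoter regions of 5 iNKT1 markers summed to 561–569.9 insertions per kb in the 4 iNKT1 libraries and to 213.6–258.1 in the 8 others. The shared part was mostly the *Il2rb* promoter, which was open in every library. Promoter regions of *Nkg7*, *Xcl1* and *Klrd1* in this sum, and of *Klrb1c* among the NK cell markers, include regions open only in iNKT1 cells. The C57BL/6 sums of these markers are thus partly set by the rule. The 4 measured iNKT17 markers reached 156.5–173.4 in iNKT17 and at most 9.84 in the other libraries. Markers of iNKT2 cells separated the subsets less, with 235.5–245.9 in C57BL/6 iNKT2 against 195.7–199.8 in iNKT1 libraries, and 186–194.9 against 146.9–160.8 in *Hivep3*-/- cells. The promoter of *Izumo1r*, itself used in sorting, differed most, at 6.33 and 6.39 (log2) in C57BL/6 iNKT2 against 5.51 and 5.51 in iNKT1 libraries. In both genotypes *Il4* and *Gata3* were also higher in iNKT2, *Icos* overlapped, and *Il17rb* was higher in iNKT1. For *Il17rb* the C57BL/6 levels were 5.096 and 5.115 in iNKT1 against 4.864 and 4.989 in iNKT2 libraries. The 3 measured gamma-delta T cell markers summed to 81.49–87.85 in iNKT17 and 8.565–16.32 in the other libraries, and *Epcam*, the 1 measured of 5 epithelial markers, was higher in replicate 2 than in replicate 1 of all 6 groups. No promoter region of any of 5 B cell, 5 myeloid or 5 double-positive thymocyte markers was in the table. Of 5 NK cell markers, *Ncr1* and *Klra8* had no promoter region, and the promoters of *Eomes*, *Klrb1c* and *Il2rb* summed to 290.1–296 in iNKT1 and 190.3–255.1 in the other libraries. This sum too was mostly the *Il2rb* promoter, already counted among the iNKT1 markers. It stood at 8.04 and 8.08 (log2) in C57BL/6 iNKT1 libraries, against 4.58 and 4.26 for *Klrb1c* and 2.77 and 2.61 for *Eomes*. The part of other cells in the levels was not tested. In these sorted bulk samples, fewer cells of a type and less accessibility per cell cannot be told apart.

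The median level of the 2233 regions was 3.98 and 3.94 in the 2 C57BL/6 iNKT1 libraries, 1.10 and 0.91 in the iNKT2 libraries and 0.39 and 0.35 in the iNKT17 libraries. On the linear scale, the group medians were 15.5, 1.97 and 1.24 insertions per kb. The regions were thus closer to the iNKT2 than to the iNKT17 level: the highest other library was an iNKT2 library at 1515 regions (67.8%). At least 5 insertions per kb were still present at 463 regions in iNKT2 and 251 in iNKT17 cells, so "only" refers to the 3-fold rule and not to closed chromatin. The SD between the replicates of a region had a median of 0.11 for iNKT1, 0.27 for iNKT2 and 0.33 for iNKT17.

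Regions just inside the 3-fold threshold, with a gap of 1.585, lay nearest to *Med10*, *Klra6* and *Klre1*, and regions just outside, with gaps of 1.582, 1.582 and 1.581, nearest to *Rap1b*, *Klra1* and *Piezo1*. At the threshold on the level, the regions inside had iNKT1 means of 2.323 (*Pde7a*), 2.324 (*Ptpn11*) and 2.327 (*Eomes*), and those outside 2.318 (*Lat2*), 2.310 (*Camk2b*) and 2.305 (*Bcl11b*). A further 69 regions had the gap but missed the level.

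**Figure D1:**
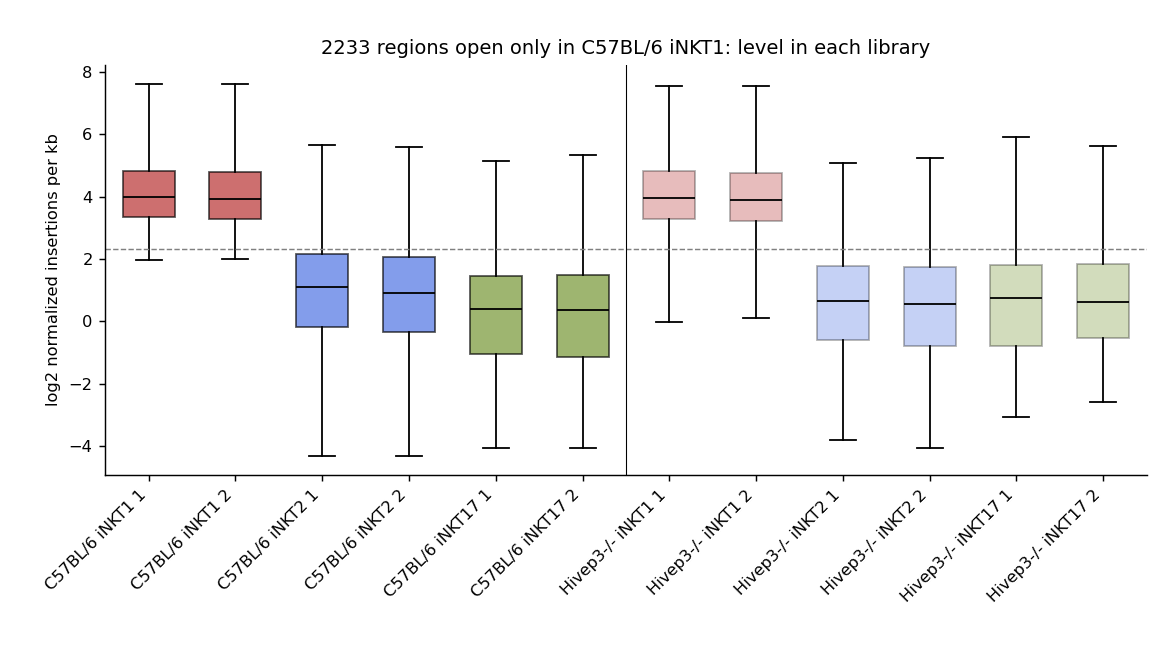
Log2 normalized insertions per kb of the 2233 regions in each of the 12 libraries. Boxes span the quartiles with the median as a line, whiskers reach the lowest and highest region, and the dashed line marks 5 insertions per kb. The medians were 3.90 to 3.98 in the 4 iNKT1 libraries and 0.35 to 1.10 in the 8 others.

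The *Hivep3*-/- libraries took no part in choosing the regions, and there the regions were again high in iNKT1 cells. Their medians were 3.95 and 3.90 in the *Hivep3*-/- iNKT1 libraries, 0.66 and 0.55 in iNKT2 and 0.74 and 0.63 in iNKT17 libraries, against 3.90 over all regions in each of the 12 libraries. Both *Hivep3*-/- iNKT1 libraries lay above all 4 other *Hivep3*-/- libraries at 2230 of the 2233 regions, against 24.8% of all regions of the table. The iNKT1 level reached 5 insertions per kb at 2156 regions (96.6%), which were the ones tested against each other subset. They passed this filter through the iNKT1 level, since 341 regions reached it in *Hivep3*-/- iNKT2 and 334 in iNKT17 cells.

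*Hivep3*-/- iNKT1 cells were higher than *Hivep3*-/- iNKT2 cells at 2028 of the 2156 tested regions and lower at 0 (limma across all regions, Benjamini-Hochberg adjusted p under 0.1 and at least 3-fold). The background was 8.77% higher and 8.54% lower among all regions tested. None was lower at an unadjusted p under 0.05 in limma either, here or against iNKT17 cells. The difference had a median of 3.33 on the log2 scale, with quartiles of 2.46 and 4.51, and was positive at all 2233 regions, while the median over all regions was −0.02. Against *Hivep3*-/- iNKT17 cells, 2020 of 2156 were higher and 0 lower, with a background of 9.48% and 9.83%, and the median difference was 3.34 with quartiles of 2.39 and 4.63. These comparisons share the *Hivep3*-/- iNKT1 libraries and are not independent of each other. With no filter, limma called 2098 of the 2233 higher than in iNKT2 and 2088 higher than in iNKT17 cells, and 0 lower. Beside them, 8.77% and 9.70% of all regions were higher and 9.03% and 9.86% lower.

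At 49 regions both *Hivep3*-/- iNKT2 libraries were at their lowest value, and at 162 both iNKT17 libraries were, so that a difference there has no scale. Without these regions, a choice made after seeing the data, the medians were 3.28 and 3.17, and 1982 and 1877 regions were called. The remaining differences ran from 0.16 to 8.85 against iNKT2 and from 0.34 to 8.64 against iNKT17 cells. A pseudocount of 5 insertions per kb, which shrinks changes from low levels, gave 1086 and 1045 calls.

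**Figure D2:**
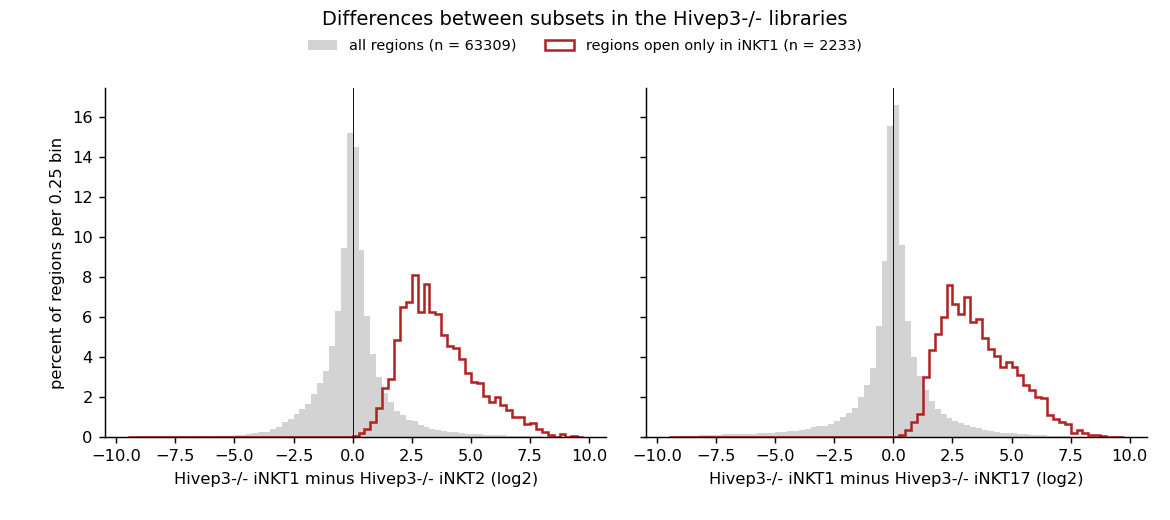
Difference between *Hivep3*-/- iNKT1 and *Hivep3*-/- iNKT2 (left) or iNKT17 cells (right) on the log2 scale (x axis) against the percent of regions per bin of 0.25 (y axis). Grey bars are all 63309 regions and the red line the 2233 regions open only in C57BL/6 iNKT1 cells, whose medians were 3.33 and 3.34, against −0.02 and 0.02 over all regions.

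The full rule was met in the *Hivep3*-/- libraries by 1739 of the 2233 regions (77.9%), against 4.22% of all regions. The gap between the lower iNKT1 library and the highest other library had a median of 2.34 in C57BL/6 and 2.44 in *Hivep3*-/- cells. Of the 494 regions that missed the rule, 416 missed only the gap, 48 only the level and 30 both. The 446 that missed the gap had a median C57BL/6 gap of 1.86, nearer to the threshold than the median of all the regions, and 308 of them still had a gap of at least 1. The closest *Hivep3*-/- library was iNKT2 at 209 and iNKT17 at 237 of these 446. No region passed to the list of regions open only in iNKT2 or only in iNKT17 cells.

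In all, 2671 regions met the rule in the *Hivep3*-/- libraries, and the shared regions were 65.1% of that list. At 853 of the 932 that were added, both C57BL/6 iNKT1 libraries already lay above all 4 others, with a median gap over the 932 of 1.13. For the regions open only in iNKT2 cells, the shared part was 46.8% of the C57BL/6 and 49.7% of the *Hivep3*-/- list, and for iNKT17 cells it was 79.4% and 89.9%. These shares are side by side without a test. Of the 558 regions with the highest C57BL/6 iNKT1 level 87.8% met the rule in *Hivep3*-/- cells, and of the 559 with the lowest 69.8%.

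The 3 regions at which the *Hivep3*-/- libraries overlapped, named here after their values were seen, lay nearest to *Rgs3*, *Sel1l* and *Fez2*. At the *Rgs3* region, in an intron, the *Hivep3*-/- levels were 2.49 and 2.98 in iNKT1, 2.44 and 2.52 in iNKT2 and 0.38 and −1.06 in iNKT17 cells. In C57BL/6 cells the same region stood at 3.48 and 3.08, 1.06 and 0.76, and −0.78 and −0.61. At all 3 the overlap was with iNKT2 libraries. Against *Hivep3*-/- iNKT2 cells the differences were 0.25, 0.26 and 0.16, with limma adjusted p of 0.66, 0.66 and 0.83, and the *Hivep3*-/- iNKT17 libraries stayed below both iNKT1 libraries.

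Of the 80 genes in 5 lists of iNKT1 biology, 78 had a region of the table in the gene body or within 10 kb, and 49 of these (62.8%) had a region open only in iNKT1 cells. The same was true of 8.08% of the 15405 protein-coding genes with a region. The lists were drawn up with results of these data in view. By contrast, 1 of 13 iNKT2 genes (*Gata3*) and 0 of 14 iNKT17 genes had one, although 229 and 104 regions of the table lay at those genes. The highest region at each listed gene gave 48 different regions. All 48 were called higher in *Hivep3*-/- iNKT1 than in iNKT2 cells and 46 of 48 than in iNKT17 cells, against the backgrounds of 8.77% and 9.48%. Among all tested regions open only in iNKT1 cells, 2028 and 2020 of 2156 were called, so these counts are not particular to the listed genes.

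Transcription factor genes held 17 of the regions, at 6 of 13 genes: *Tbx21*, *Runx3*, *Zeb2*, *Irf8*, *Stat4* and *Hopx*. Of these regions, 15 met the rule in *Hivep3*-/- cells, 15 were called against iNKT2 and 15 against iNKT17 cells. The 6 regions at *Tbx21*, of 12 in the locus, were all called in each comparison. The highest, in an intron 2.60 kb from the nearest start site, had levels of 6.59 and 6.72 in C57BL/6 iNKT1, 3.61 and 4.06 in iNKT2 and 0.49 and −0.61 in iNKT17 cells, and of 7.06 and 7.16, 2.89 and 1.90, and 0.87 and 0.40 in the *Hivep3*-/- subsets. Within *Hivep3*-/- cells it was 4.71 ± 0.36 (SE) higher in iNKT1 than in iNKT2 (limma adjusted p = 2.4e-07) and 6.47 ± 0.36 higher than in iNKT17 cells (1.2e-08). The iNKT2 libraries thus stood between the other subsets, and no groups overlapped.

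*Stat4*, which encodes the factor that carries the interleukin-12 signal, held 5 regions of 14. Its highest region, in an intron, stood at 6.46 and 6.30 in C57BL/6 iNKT1, 1.81 and 1.39 in iNKT2 and −1.38 and −0.41 in iNKT17 cells. The *Hivep3*-/- levels were 5.95 and 5.80, −0.61 and −0.41, and −1.52 and −0.55, and the iNKT1 libraries lay 6.38 ± 0.39 above iNKT2 (limma adjusted p = 4.3e-08). The *Runx3* locus held 1 region of 23, in an intron, which was 2.80 ± 0.47 and 4.79 ± 0.47 above the other *Hivep3*-/- subsets (limma adjusted p = 0.00021 and 1.8e-06). Regions of *Hopx*, an atypical homeobox gene, *Zeb2*, a zinc finger repressor of terminal effector cells, and *Irf8* were 3.53 to 6.17 higher than in iNKT2. *Eomes*, *Id2*, *Prdm1*, *Zfp683*, *Bhlhe40*, *Klf2* and *Nfil3* had no such region within 10 kb. Within 50 kb, *Eomes*, *Prdm1*, *Bhlhe40* and *Nfil3* had 1 each. By nearest start, 7 regions belonged to *Id2*, none of them within 50 kb of it.

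Genes of cytotoxic effectors, cytokines and chemokines held 34 of the regions, at 11 of 16 genes. In *Hivep3*-/- cells 32 met the rule, and 34 and 33 were called higher than in iNKT2 and iNKT17 cells. The region with the highest C57BL/6 iNKT1 level of the list covered the promoter of *Nkg7*, a granule protein of NK cells and cytotoxic T cells. Its levels were 7.32 and 7.19 in C57BL/6 iNKT1, 3.89 and 3.61 in iNKT2 and 1.29 and 0.97 in iNKT17 cells, and 7.30 and 7.22, 1.44 and 1.47, and 1.88 and 0.97 in *Hivep3*-/- cells. Within *Hivep3*-/- cells, iNKT1 was 5.80 ± 0.25 above iNKT2 (limma adjusted p = 4.8e-09) and 5.84 ± 0.25 above iNKT17 cells (1.7e-09). In the stretch printed above, the T-box match lies in this promoter region.

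At *Ifng*, the interferon-γ gene, 3 of 6 regions were open only in iNKT1 cells. The highest, 5.35 kb upstream of the gene start and shown above with 2 T-box matches, had 4.50 and 4.50 in C57BL/6 iNKT1, −0.10 and −0.41 in iNKT2 and −4.05 in both iNKT17 libraries, their lowest value. In *Hivep3*-/- cells it had 4.82 and 4.68, −0.88 and −2.39, and −3.06 and 0.19. The difference from *Hivep3*-/- iNKT2 cells was 6.39 ± 0.84 (limma adjusted p = 2.7e-05), and that from iNKT17 cells was 6.19 ± 0.84 (3.2e-05). The *Hivep3*-/- iNKT17 libraries lay far apart, one of them at its lowest value, and both lay below iNKT1.

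All 5 regions at *Xcl1*, a chemokine that attracts cross-presenting dendritic cells, all 5 at *Ccl3* and both at *Ccl4* were open only in iNKT1 cells. The *Xcl1* promoter region had 6.42 and 6.47 in C57BL/6 iNKT1, 4.12 and 3.86 in iNKT2 and −0.41 and 0.44 in iNKT17 cells. *Hivep3*-/- libraries had 6.51 and 6.59, 3.33 and 2.61, and 0.74 and 0.82, a difference of 3.58 ± 0.28 from iNKT2 (limma adjusted p = 3e-07) and 5.77 ± 0.28 from iNKT17 cells (4.1e-09). A region upstream of *Ccl5* had the same order, with *Hivep3*-/- levels of 5.59 and 5.50 in iNKT1 and 2.39 and 2.49 in iNKT2, while both iNKT17 libraries were at their lowest value.

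The promoters of the cytotoxic genes *Gzmb* and *Prf1* had the other order, with iNKT17 above iNKT2. Granzyme B and perforin act together, perforin forming the pores through which granzymes enter the target cell. The *Gzmb* promoter had 4.92 and 4.76 in C57BL/6 iNKT1, −1.38 and 0.06 in iNKT2 and 3.08 and 2.59 in iNKT17 cells, and 4.67 and 4.76, −0.88 and −0.59, and 2.66 and 3.25 in *Hivep3*-/- cells. In *Hivep3*-/- cells, iNKT1 was 5.45 ± 0.40 above iNKT2 and only 1.76 ± 0.40 above iNKT17 (limma adjusted p = 1.8e-07 and 0.0021), and iNKT2 was 3.69 ± 0.40 below iNKT17 (6.8e-06). At the *Prf1* promoter the *Hivep3*-/- levels were 5.95 and 5.89, 1.98 and 1.34, and 3.80 and 3.54. The *Fasl* promoter, of the death ligand, had the smallest difference from iNKT2 of the 48 listed-gene regions, 1.59 ± 0.27, and was 1.55 ± 0.27 above iNKT17, so that it passed 3-fold against iNKT2 alone. With a pseudocount of 1 it did not pass either. *Gzmk*, *Gzmm*, *Ctsw*, *Serpinb9* and *Srgn* had no such region within 10 kb.

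NK receptors and their adaptors were the densest list, with 45 of 94 regions at 18 of 21 genes. In *Hivep3*-/- cells 44 met the rule, and all 45 were called against either subset. *Klrb1c* encodes NK1.1, the receptor long used to mark mature NKT cells in this strain. Its highest region, 1.45 kb upstream of the gene start, in an intron of *Gm44511*, and shown above, had 5.82 and 6.05 in C57BL/6 iNKT1, 1.23 and 1.23 in iNKT2 and −0.59 and −1.15 in iNKT17 cells, and 5.69 and 5.48, −0.88 and −4.05, and −0.10 and 0.19 in *Hivep3*-/- cells. The *Hivep3*-/- difference was 8.05 ± 0.70 from iNKT2 (limma adjusted p = 7.5e-07), with an iNKT2 library at its lowest value, and 5.54 ± 0.70 from iNKT17 cells (1.7e-05).

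*Klrd1* encodes CD94, which pairs with the NKG2 proteins of the *Klrc* genes. At *Klrd1* 9 of 10 regions, and at *Klrc2* 5 of 5, were open only in iNKT1 cells. The highest region at *Klrd1*, upstream of the gene, had *Hivep3*-/- levels of 4.93 and 4.70 in iNKT1, −3.79 and −2.39 in iNKT2 and −3.06 and −0.55 in iNKT17 cells, and C57BL/6 levels of 4.57 and 4.66, −0.72 and −2.10, and −3.12 and −4.05. The *Klrc2* promoter had 5.46 and 5.47, 0.90 and 0.66, and 0.19 and −0.10 in *Hivep3*-/- cells, with replicates close together, and was 4.68 ± 0.27 above iNKT2 (limma adjusted p = 2.7e-08). Each of *Klra3*, *Klra5*, *Klra7* and *Klra9*, genes of the Ly49 family of inhibitory and activating receptors, also held at least 1 such region.

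The *Fcer1g* promoter, of a signalling adaptor, had 4.50 and 4.54 in *Hivep3*-/- iNKT1 and −0.13 and −1.38 in iNKT2 libraries, and the difference was 5.27 ± 0.82 (limma adjusted p = 0.00011). A region downstream of *Slamf7*, a receptor of the SLAM family, had 6.60 and 6.52, 0.90 and 1.10, and 2.13 and 1.57. The *Klrg1* region was low even in iNKT1 cells, at 2.81 and 3.46 in C57BL/6 and 3.45 and 3.55 in *Hivep3*-/- libraries, and 1 *Hivep3*-/- iNKT2 and both *Hivep3*-/- iNKT17 libraries were at their lowest value.

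**Figure D3:**
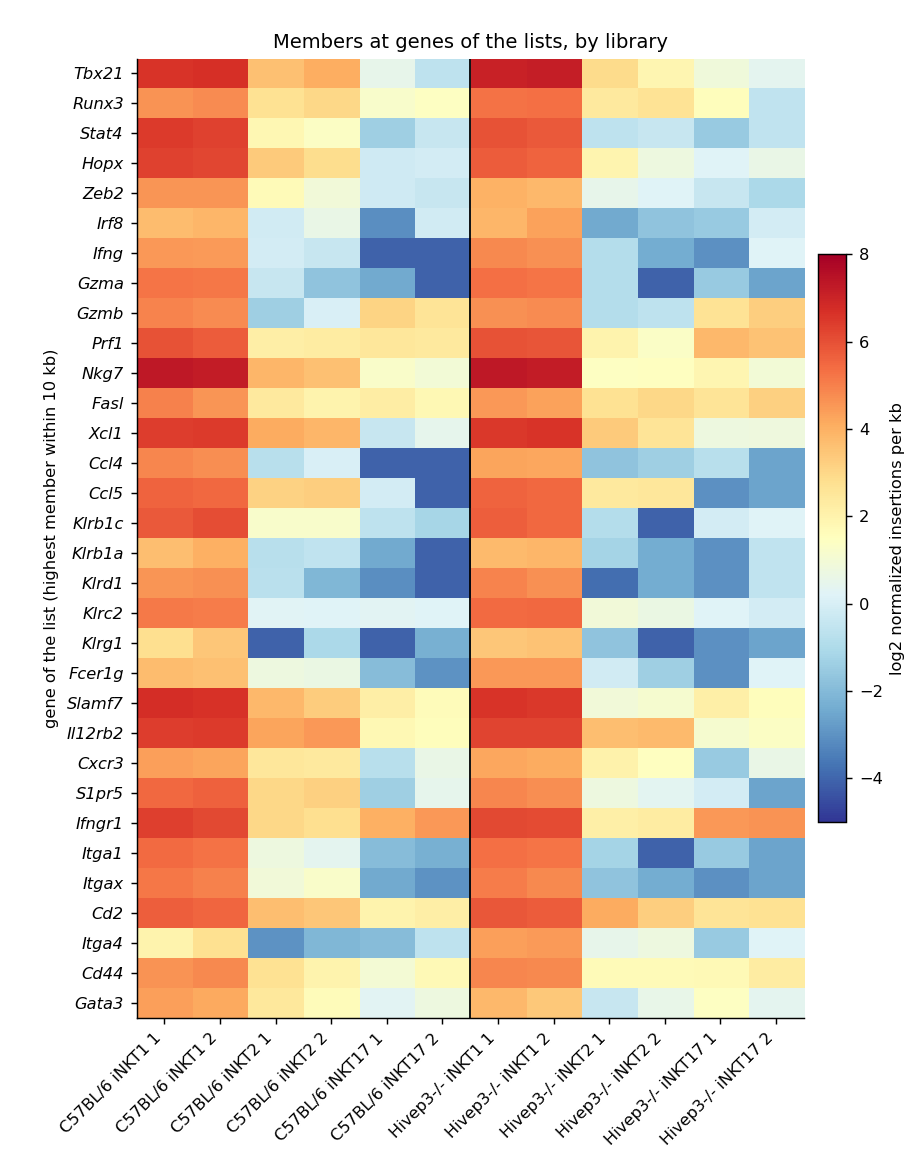
Level of the highest region open only in iNKT1 cells at each of 32 listed genes (rows) in the 12 libraries (columns, C57BL/6 left and *Hivep3*-/- right of the line); colour gives log2 normalized insertions per kb. The iNKT1 columns were highest in every row, and the *Gzmb*, *Prf1* and *Ifngr1* rows were higher in iNKT17 than in iNKT2 columns.

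Receptors for cytokines, chemokines and lipids held 25 of the regions, at 8 of 16 genes, of which 19 met the rule in *Hivep3*-/- cells and 24 and 21 were called. The *Il12rb2* locus, for a chain of the interleukin-12 receptor, held 7 of 13. Its promoter had 6.40 and 6.44 in C57BL/6 iNKT1, 4.25 and 4.54 in iNKT2 and 1.79 and 1.60 in iNKT17 cells, and 6.26 and 6.24, 3.65 and 3.74, and 1.10 and 1.35 in *Hivep3*-/- cells. The replicates were close, and the 3 subsets were separate in both genotypes, with *Hivep3*-/- differences of 2.55 ± 0.17 (limma adjusted p = 7.3e-08) and 5.02 ± 0.17 (3.2e-10). *Cxcr3*, a chemokine receptor of T helper 1 cells, held 4 of 6.

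*Ifngr1*, for the interferon-γ receptor, was open in iNKT17 cells as well: its highest region had 6.13 and 6.08 in *Hivep3*-/- iNKT1, 2.14 and 2.28 in iNKT2 and 4.51 and 4.64 in iNKT17 cells. The difference from iNKT17 cells was 1.53 ± 0.17, with a limma adjusted p of 6.1e-06 but under 3-fold. At *S1pr5*, a sphingosine-1-phosphate receptor of NK cells, the region shown above had 4.86 and 4.70, 0.78 and 0.35, and −0.10 and −2.58. *Il2rb* had 0 of 11 regions open only in iNKT1 cells within 10 kb, and 6 within 50 kb. *Cxcr6*, *Il18r1*, *Il7r* and *S1pr1* had none within 10 kb.

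Adhesion and surface molecules held 19 of the regions, at 6 of 14 genes; 17 met the rule in *Hivep3*-/- cells and 18 were called in each comparison. Of the 12 regions at *Itga1*, for the collagen-binding integrin chain of tissue-resident lymphocytes, 8 were open only in iNKT1 cells. The one shown above had 5.44 and 5.30 in C57BL/6 iNKT1, 0.75 and 0.42 in iNKT2 and −1.91 and −2.29 in iNKT17 cells, and 5.34 and 5.22, −1.22 and −4.05, and −1.52 and −2.58 in *Hivep3*-/- cells. All 3 regions at *Itgax*, the CD11c gene, were among them, and the one shown above, 9.58 kb upstream of the gene start, was 6.99 ± 0.47 above *Hivep3*-/- iNKT2 (limma adjusted p = 8.9e-08). The *Cd2* promoter, of an adhesion receptor, had a smaller difference of 2.12 ± 0.24 (limma adjusted p = 6.5e-06), and an intron region of *Cd44* one of 3.17 ± 0.30 (1.6e-06). The single region at *Gata3*, the T helper 2 factor, lay in an intron and had 3.79 and 3.38, −0.40 and 0.55, and 1.41 and 0.40 in *Hivep3*-/- cells.

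The 10 regions with the highest C57BL/6 iNKT1 level ran from 7.03 to 7.62. Apart from the *Nkg7* promoter they lay in introns or between genes, nearest to *Pgap1*, *B4galt5*, *Tmem131l*, *Hip1*, *Fxyd3*, *Haus8*, *Serpinb1b*, *Dusp1* and *Prkce*. Several were also open in the other subsets. The highest, nearest to *Pgap1* and in an intron of *Ankrd44*, had *Hivep3*-/- levels of 7.55 and 7.37 in iNKT1, 4.56 and 4.27 in iNKT2 and 4.85 and 4.80 in iNKT17 cells. The region near *Serpinb1b* was far lower in those, with *Hivep3*-/- levels of 7.33 and 7.30, 1.10 and 0.10, and 2.49 and 1.11. Among the *Hivep3*-/- iNKT2 and iNKT17 means, the 5 highest were at regions nearest to *Gm4070*, *Sorl1*, *Med10*, *Serpina12* and *Hip1*. The *Gm4070* region had the smallest gap of these 5, at 6.65 and 6.50, 4.82 and 5.04, and 5.92 and 5.62, and was 0.80 above iNKT17 (limma adjusted p = 0.00017).

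Between *Hivep3*-/- iNKT2 and iNKT17 cells the difference had a median of −0.03 and was positive at 1099 of 2233 regions. With quantile normalization renewed, the median was 0.28 and 1316 were positive, so that a lean to iNKT2 depends on the scaling. Only 470 were accessible enough to be tested, of which 47 were higher in iNKT2 (7.33% of all regions were) and 43 in iNKT17 cells (8.25%). These 90 calls were 2 with a pseudocount of 5. The largest on the iNKT17 side, named after their values were seen, were near *P2rx3*, at *Gzmb* and at 2 introns of *Ptpre*, a receptor-type phosphatase. The *Ptpre* region with the larger difference had *Hivep3*-/- levels of 6.70 and 6.59, 0.20 and −0.22, and 3.07 and 4.15. On the iNKT2 side were regions near *Ccl5*, *N6amt1*, *Ifng*, *Rgs3* and *Arsb*. That region near *Ifng*, another than the one shown above, had 5.95 and 5.67, 3.05 and 2.31, and 0.57 and −2.58.

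Between the genotypes, the level in iNKT1 cells differed by less than 2-fold at 2071 of the 2233 regions (92.7%), with a median change of −0.07, against −0.02 over all regions. The C57BL/6 libraries chose the regions, so these changes are a description. Both *Hivep3*-/- iNKT1 libraries lay above both C57BL/6 libraries at 30.4% of the regions and below at 41.4%, against 25.2% and 28.3% of all regions. At the thresholds used above, 12 regions were higher and 4 lower in *Hivep3*-/- iNKT1 cells, beside 0.89% and 0.264% of all regions tested. With the replicate number as a block, in each genotype or shared by both, the 4 lower regions were 9 or 8. Without any 1 of the 4 iNKT1 libraries these 16 were 3 to 8: 5 and 8 without C57BL/6 replicate 1 or 2, and 6 and 3 without *Hivep3*-/- replicate 1 or 2.

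In iNKT2 cells the regions were lower in *Hivep3*-/- libraries and in iNKT17 cells higher. The median change was −0.33 in iNKT2 and 0.35 in iNKT17 cells, while over all regions it was 0.00 and −0.01. Both *Hivep3*-/- iNKT2 libraries were below both C57BL/6 libraries at 39.8% of the regions and above at 16.4%, against 25.6% and 27.2% of all regions. In iNKT17 cells they were above at 36.7% and below at 10.4%, against 21.8% and 22.3%. Of 536 regions tested in iNKT2, 10 were higher and 67 lower, beside 0.474% and 1.2% of all regions. Of 359 tested in iNKT17, limma called 10 higher and 0 lower, beside 0.133% and 0.138%, with 23 lower at an unadjusted p under 0.05. Without C57BL/6 iNKT17 replicate 2 there were 17 higher, and without *Hivep3*-/- iNKT17 replicate 1 or 2 there were 14 higher and 3 lower, or 10 and 2. These directions are partly set by the filter, since 463 regions reached 5 insertions per kb in C57BL/6 and 341 in *Hivep3*-/- iNKT2 cells, and 251 and 334 in iNKT17 cells, so the counts do not support the medians. With no filter, 38 were higher and 217 lower in iNKT2, and 91 and 17 in iNKT17 cells. In the interaction term, which uses the C57BL/6 libraries and is again a description, the change in iNKT1 lay above that in iNKT2 cells at 110 regions and below at 11, beside 2.06% and 1% of all regions. It lay above that in iNKT17 cells at 8 and below at 49, beside 1.05% and 0.372%. Both counts depended on single libraries: without any 1 of the 4 iNKT1 libraries (C57BL/6 replicate 1 or 2, *Hivep3*-/- replicate 1 or 2) the 110 were 58, 74, 50 or 56 and the 49 were 11, 16, 9 or 5. With pseudocounts of 1 and 5 the 110 were 51 and 6, and the 49 were 20 and, in limma, 0, with 530 at an unadjusted p under 0.05. With the replicate block the counts were 147 and 20, and 15 and 86.

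Most of these levels are low, and the lowest recorded values differ by library, at −4.31 in both C57BL/6 iNKT2, −4.05 in both C57BL/6 iNKT17, and −3.06 and −2.58 in the *Hivep3*-/- iNKT17 libraries, which were also the ones with the fewest distinct values. The part of depth in the changes was not tested. Without regions at which both libraries of a group were at their lowest value, again chosen after seeing the data, the median changes were −0.32 (2182 regions) and 0.34 (2033 regions).

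**Figure D4:**
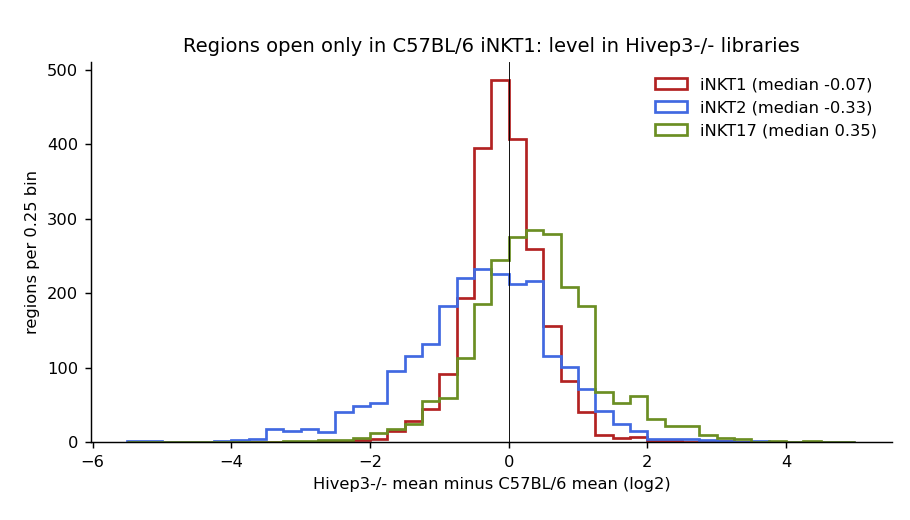
Change of each of the 2233 regions from the C57BL/6 to the *Hivep3*-/- mean, on the log2 scale (x axis), as regions per bin of 0.25 (y axis), with one line per subset. The medians were −0.07 for iNKT1, −0.33 for iNKT2 and 0.35 for iNKT17, and the iNKT1 line is the narrowest.

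The 5 largest positive changes in iNKT1 cells were at regions nearest to *Ptpn11*, *Tmem121*, *Camk2b*, *Itga4* and *Syk*. The *Ptpn11* region had 2.13 and 2.52 in C57BL/6 and 5.42 and 5.31 in *Hivep3*-/- iNKT1 libraries, a change of 3.04, and stayed between −1.06 and 0.21 in the other 8. An intron region of *Itga4*, for an integrin chain that binds VCAM-1, had 2.00 and 2.76 in C57BL/6 iNKT1, −3.02 and −2.10 in iNKT2 and −1.91 and −0.61 in iNKT17 cells, and 4.36 and 4.46, 0.51 and 0.76, and −1.52 and 0.19 in *Hivep3*-/- cells. The *Camk2b* region was higher in *Hivep3*-/- cells of all 3 subsets, at 2.75 and 2.65, −0.55 and −0.10, and −1.91 and 0.44 in C57BL/6 and 4.97 and 5.12, 2.89 and 3.87, and 3.78 and 3.35 in *Hivep3*-/- cells. Its *Hivep3*-/- gap was 1.10, under that of the rule.

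The 5 largest negative changes were at regions nearest to *Rsad1*, *Garnl3*, *Bach2* and, as neighbours in 1 intron, *Ccdc171* (2 regions). The *Rsad1* region had 2.45 and 3.03 in C57BL/6 and −0.01 and 0.12 in *Hivep3*-/- iNKT1 libraries. The *Garnl3* region, in an intron, had 3.68 and 3.57 against 0.57 and 1.69, and the 2 *Ccdc171* regions 3.74–3.94 against 1.60–1.90. All 5 *Hivep3*-/- means were under 5 insertions per kb, so none was tested against another *Hivep3*-/- subset.

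The regions lay away from gene starts. Only 140 (6.27%) were within 1000 bp of a transcription start, against 30.1% of all regions and 34.6% of the regions accessible in C57BL/6 iNKT1 cells. Introns held 1184 (53.0% against 41.2%), intergenic sequence 825 (36.9% against 24.7%) and exons 84 (3.76% against 4.02%). The share at promoters was close to that of the regions open only in iNKT2 (5.96%) and only in iNKT17 cells (6.57%), so it is shared by the regions of all 3 subsets. The median distance to the nearest start was 13.8 kb against 5.88 kb, and the median GC content 46.6% against 50.0%. The rule was met in *Hivep3*-/- cells at 72.9% of the regions at promoters and 79.3% of the intergenic regions.

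Another such region was within 10 kb of 806 (36.1%) and within 100 kb of 1458 (65.3%), and any region of the table was within 10 kb of 81.1%. Of the neighbours within 10 kb, 22.7% were open only in iNKT1 cells, against 3.53% of all regions. For the regions open only in iNKT2 cells that share was 19.7% against 2.28%, and for iNKT17 cells 34.8% against 5.26%, so neighbours of the same kind were found for all 3 subsets. The fullest windows of 100 kb were on chromosome 6, in the NK gene complex: 12 of 16 regions of the table between 129500001 and 129600000 (GRCm38), around *Klrd1* and *Klre1*, and 11 of 14 in the next window, around the *Klrc* genes and *Klrk1*. The chemokine cluster on chromosome 11 followed with 9 of 10, around *Ccl3*, *Ccl4* and *Ccl6*. Chromosome 6 had the highest share of regions open only in iNKT1 cells, 5.91%.

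By nearest start, the regions belonged to 1351 genes, of which 900 had 1 region and 54 at least 5. The genes with most were *Xcl1* (11 of 25 regions), *Coro2a* (10 of 29), *Prex1* (10 of 69), *Gas7* (9 of 11) and *Itgb1* (9 of 16), with *Sulf2* also at 9 of 17. *Coro2a* encodes a coronin, an actin-binding protein, *Prex1* an activator of Rac, and *Itgb1* the integrin chain that pairs with the products of *Itga1* and *Itga4*. All 11 regions of *Xcl1*, all 10 of *Prex1* and all 9 of *Gas7* met the rule in *Hivep3*-/- cells, as did 7 of 9 at *Itgb1* and 6 of 10 at *Coro2a*. None of the 9 lay within 10 kb of the *Itgb1* gene body.

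Of the 12 short motifs plotted, the T-box motif had the largest ratio to its share in all regions, and the Runx motif the largest difference in percentage points. Outside promoters, the difference was larger for the T-box than for the Runx motif. A shorter T-box core, GGTGTGA, was searched but not plotted. It occurred in 21.6% against 8.57% of all regions, a larger difference than that of the Runx motif. The full motif AGGTGTGA, searched like all motifs on both strands, occurred in 278 of the regions open only in iNKT1 cells (12.4%). The share was 2.91% in all regions and 3.44% in all regions outside promoters (12.6% of these regions outside promoters). It occurred in 2.7% of the regions open only in iNKT2 and 2.07% of those open only in iNKT17 cells. Matches stood near the centre of the region: 61.9% of 312 matches were within 50 bp of it, against 34.6% of the matches in all regions. Of the 48 listed-gene regions, 10 held this motif and 11 the Runx motif.

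The Runx motif TGTGGTT occurred in 28.3% against 17.4%, or 28.7% against 21.3% outside promoters. The ETS motif AGGAAGT occurred in 29.9% against 21.3%, or 30.4% against 24.6% outside promoters. T-box and Runx matches stood together in 57 regions (2.55% against 0.526%), with overlapping letters in 2 of them. At 966 regions (43.3%) none of the 3 motifs was found, against 63.4% of all regions. The TCF motif CTTTGAA was found in 9.94%, against 25% of the regions open only in iNKT2 cells, and the ROR motif AGGTCA in 29.7%, against 52.9% of those open only in iNKT17 cells and 27.7% of all regions. The E-box CAGCTG (27.8% against 27.1%) and the IRF motif GAAANNGAA (14.9% against 15.3%) differed little, and the NF-kB motif GGANTTTCC was in 1.48% against 2.45%. The rest were bZIP TGANTCA (20.3% against 15.9%), STAT TTCNNNGAA (15.4% against 13.4%), AGATAA of GATA factors (25.8% against 20.6%) and Egr GCGTGGG (2.06% against 6.81%). Outside promoters these differences were smaller: bZIP 20.2% against 18.9%, STAT 15.3% against 14.8%, GATA 25.7% against 24.4% and Egr 1.77% against 4.15%. The GATA motif was in 31.1% of the regions open only in iNKT2, and the bZIP motif in 22.4% of those open only in iNKT17 cells. T-box and Runx matches can overlap only at their ends, and cannot share the GTG that both hold.

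**Figure D5:**
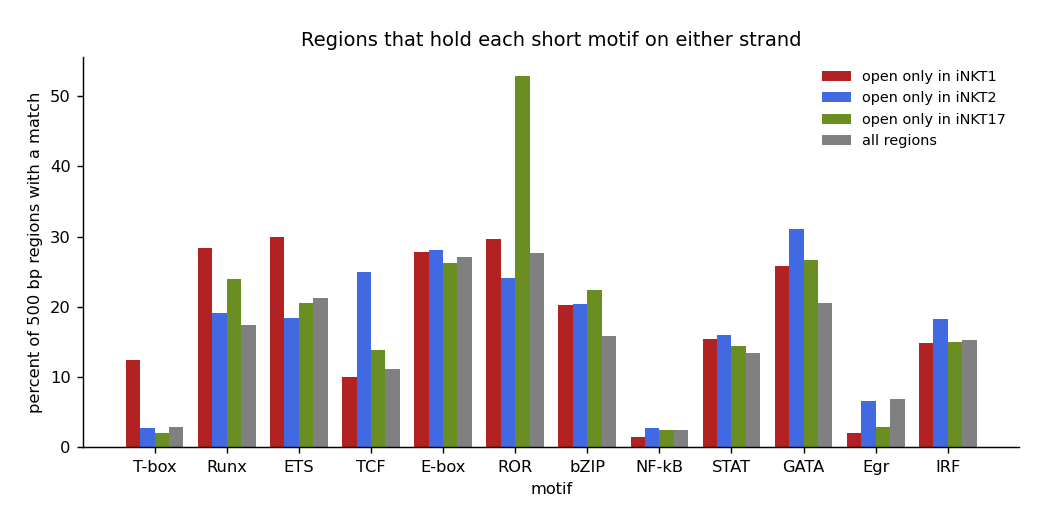
Percent of 500 bp regions (y axis) with at least 1 match to each short motif on either strand (x axis), for the regions open only in iNKT1 (red), only in iNKT2 (blue), only in iNKT17 cells (green) and all regions (grey). The T-box bar is 12.4% in the iNKT1 set and 2.07% to 2.91% in the others, while the TCF bar is highest in the iNKT2 set (25%) and the ROR bar in the iNKT17 set (52.9%).

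The behaviour of regions with and without a match in *Hivep3*-/- libraries is given side by side, with no test. Their median C57BL/6 iNKT1 level was 4.11, against 3.93 without a match, and the rule was met in *Hivep3*-/- cells by 83.1% against 77.1%. The median change between genotypes in iNKT1 cells was −0.21 with and −0.05 without a match. With a Runx match the rule was met by 80.9% and without by 76.7%, and with an ETS match by 75.6% and without by 78.8%. Among the 932 regions that met the rule only in *Hivep3*-/- libraries, the T-box motif was in 9.12% and the Runx motif in 32.2%.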

How the data were processed

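The ATAC-seq data comprised 12 libraries, 2 for each of 3 thymic iNKT subsets in each genotype. According to the methods, the authors trimmed reads with Trimmomatic (version 0.39 in the submitters' processing notes), mapped them to mm10, merged peaks of all replicates with chromVAR to 500 bp regions, counted transposase insertions and applied voom. The log2 values deposited by the authors are normalized insertions per kb and share their upper quantiles, so a change common to most regions cannot be seen and depth is unknown.

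The members and the gene lists were chosen with earlier results of these data known. Group means of all 12 libraries were fitted with limma 3.58.1 in R 4.3.3, using empirical Bayes moderation (variance trend on the mean). A region was tested where one of the groups compared reached 5 insertions per kb on average, with Benjamini-Hochberg adjustment per comparison, and called at adjusted p under 0.1 and 3-fold. Members not tested have no p. On simulated data with 200 changed regions the fit recovered 193 and 194 for the comparisons of *Hivep3*-/- iNKT1 with iNKT2 and iNKT17, with 3 false calls in each. The changed regions were drawn only from those above a set mean level, and the simulated noise had no lowest value. Recovery at low levels, as in the iNKT2 and iNKT17 libraries here, was thus not tested.

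Named regions are the highest at each listed gene, the 10 highest, the 5 genes with most regions, the 5 largest falls and rises, the 5 highest in *Hivep3*-/- iNKT2 or iNKT17, and those nearest the thresholds; 1 of them is not reported here. Coordinates are 1-based, with genes from GENCODE vM21 and the position of a region's centre. Sequences were read from GRCm38.p6 of RefSeq. Python 3.11.15, numpy 2.4.6, pandas 2.3.3, pysam 0.24.0 and matplotlib 3.10.9 were used.

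Whether replicate numbers pair the subsets of a genotype is not given in the sources used here. The deviations of same-numbered libraries from their group means correlated with 0.120–0.167 in all 6 pairs within a genotype. Across the genotypes they correlated with 0.0911–0.174, 8 of 9 pairs being over 0.1, so that a replicate batch shared by both genotypes cannot be told apart from pairing within each. The alternatives were other filters, pseudocounts of 1 and 5, renewed quantile normalization, no trend, the *Hivep3*-/- libraries alone, a 2-fold threshold, the replicate block, leaving out each library, other thresholds of the rule, promoters of 500 bp and loci of 50 kb.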

Additional observations from a re-analysis of the deposited data

Results flagged for a closer look

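The median change of the regions from C57BL/6 to *Hivep3*-/- cells was −0.335 (log2) in iNKT2 and 0.345 in iNKT17 cells. In iNKT2 the median of both *Hivep3*-/- libraries lay below that of both C57BL/6 libraries, and in iNKT17 above it. The C57BL/6 libraries chose the regions, so these changes are a description only. The lowest recorded values also differed, at −4.05 in both C57BL/6 iNKT17 libraries and −3.06 and −2.58 in the *Hivep3*-/- iNKT17 libraries. The difference between the subsets was not tested.

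At 6 of the 32 listed-gene regions of the plot by library the change between genotypes differed between iNKT1 and iNKT2 cells in the interaction term of the limma fit. All 6 lay higher in iNKT1. Beside them, 110 of the 2233 regions were called higher and 11 lower, and 2.06% and 1% of all regions tested. The listed genes were chosen with results of these data in view. The C57BL/6 libraries chose the regions, so the values are a description. The change in iNKT1 minus that in iNKT2, on the log2 scale, was 1.89 at *Tbx21*, 2.29 at *Nkg7*, 3.34 at *Klrb1c*, 2.40 at *Slamf7*, 3.13 at *Itga1* and 3.00 at *Itgax*. The call at *Nkg7* and *Slamf7* held under 19 of 20 alternatives, that at *Itgax* under 17, *Tbx21* 13, *Klrb1c* 10 and *Itga1* 8. The last 4 lost it without *Hivep3*-/- iNKT1 replicate 1, and all 6 with a pseudocount of 5, with no change of sign. At each of them the iNKT2 libraries were lower in *Hivep3*-/- than in C57BL/6 cells.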

How the results depend on the processing

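The number of regions higher in *Hivep3*-/- iNKT1 than in iNKT2 cells moved by over 1.5 times under 2 settings, a linear mean of at least 5 over all libraries (1342) and a pseudocount of 5 (1086), and likewise against iNKT17 cells (1338 and 1045); the first tests fewer regions. The count between *Hivep3*-/- iNKT2 and iNKT17 cells was 431 with no filter, 270 with the mean over all libraries, 48 and 2 with pseudocounts of 1 and 5, and 193 at 2-fold. Genotype counts were 4 (pseudocount of 5) and 31 (2-fold) in iNKT1. In iNKT2 they were 255, 190, 40, 1 and 154 with no filter, the mean over all libraries, pseudocounts of 1 and 5, and 2-fold, and in iNKT17 108, 61, 3, 0 and 40. The 0 is limma's, with 140 higher and 22 lower at an unadjusted p under 0.05. The causes of these moves were not tested. A 2-fold rule left 3099 regions shared by both genotypes, and 3.45% of the regions lay within 500 bp of a start. With loci of 50 kb, 59 genes of the 5 iNKT1 lists, 1 iNKT2 gene and 3 iNKT17 genes had a region open only in iNKT1 cells. The share of all protein-coding genes at 50 kb is not given here.

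Leaving out 1 library gave 1997–2036 and 1987–2027 calls in iNKT1 against iNKT2 and iNKT17, 89–114 between iNKT2 and iNKT17, 1763–1835 regions that met the rule, and genotype counts, in both directions together, of 3–20, 59–80 and 8–17, the remaining library of a group being assumed to vary like the other groups. In iNKT1 these were 5 and 8 without a C57BL/6 iNKT1 library, replicate 1 or 2, and 6 and 3 without a *Hivep3*-/- one, and in iNKT17 17 without C57BL/6 replicate 2 or *Hivep3*-/- replicate 1. With the replicate block there were 2029, 2020 and 90 calls, and the genotype counts in both directions together moved by under 1.5 times, but those of the interaction terms and of lower regions in iNKT1 moved by more, as given beside them. A block shared by the genotypes, chosen after seeing the data, gave 145 and 20, and 13 and 78, for the interaction terms.

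No direction reversed at the 32 listed genes named with values or plotted. At the *Fez2* region, *Hivep3*-/- iNKT1 replicate 2 (2.08) lay below both *Hivep3*-/- iNKT2 libraries (2.09 and 2.39). The difference was thus negative without iNKT1 replicate 1. At the *Sel1l* region, *Hivep3*-/- iNKT2 replicate 1 (2.83) lay above the *Hivep3*-/- iNKT1 mean (2.69). There the difference was negative without iNKT2 replicate 2. *Fasl*, *Gzmb*, *Cxcr3* and *Gata3* fell under 3-fold with a pseudocount of 5 in at least 1 comparison, *Fasl* and *Gzmb* also without 1 library, and *Fasl* with a pseudocount of 1. *Fasl* and *Ifngr1* passed 3-fold against iNKT17 without 1 library. *Klrg1* and *Itga4* were not tested under the mean over all libraries. Groups of 2 libraries, unknown depth and low values in iNKT2 and iNKT17 cells limit the precision.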
